A study of Mus musculus with 32 samples.

Results

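The genes described here are those of the LIN28/let-7 circuit and its embryonic RNA-binding and chromatin proteins in differentiating mouse embryonic stem cells (ESCs). They were chosen by name: Lin28a, Lin28b, Hmga1, Hmga2, Igf2bp1, Igf2bp2, Igf2bp3, Trim71, Dicer1 and Dis3l2, 10 of the 31053 genes in the files. All 10 passed the filter on low counts, which left 15280 genes to be tested. The list set no threshold on a measured value, but it was drawn up with earlier results of these data known.

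The 32 libraries fell into 8 groups of 4, all made from a line named C1. C1 cells carry the BetaCatenin Knockout genotype of the labels and an integrated, drug-controlled transgene that encodes a mutant, constitutively active β-catenin (S33Y) fused to mCherry and to a destabilising domain. Doxycycline (dox) switches on its transcription and trimethoprim (TMP) stabilises the protein, so that every group, controls included, has lost endogenous β-catenin and carries the transgene. The lentiviral vectors use an EF1a promoter for the dox-responsive activator, and all groups descend from this single modified line. For 48 h before sorting, the controls received TMP at 10 µM alone, and the other cells received TMP at 10 µM with dox at 100 ng/mL. Day 0 groups were the uninduced C1 and the sorted fractions with middle (C1M) and high (C1H) mCherry. For day 4, sorted cells were plated on gelatin in plain NDiff227, a serum-free medium without LIF, which lets ESCs leave the pluripotent state. C1T was C1 kept in TMP at 10 µM without dox. C1MV and C1HV were C1M and C1H cells in vehicle (DMSO), from which both drugs had been withdrawn. C1MDT and C1HDT were C1M and C1H cells kept in TMP at 10 µM and dox at 100 ng/mL. The study's text gives 2i/LIF (inhibitors of GSK-3 and MEK with LIF) as the culture before sorting, whereas the growth notes in the labels describe serum with LIF. The 4 replicates of a group are labelled as biological, and p-values measure only the spread between them.

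LIN28A and LIN28B are RNA-binding proteins that hold back the maturation of the let-7 family of microRNAs in early embryonic and stem cells. DICER1 cuts the let-7 hairpin precursor into the mature microRNA, whereas LIN28 bound to the precursor recruits enzymes that add a uridine tail, and DIS3L2 is the exonuclease that degrades such tailed precursors. Mature let-7 in turn pairs through its seed with messages that include those of LIN28 itself, of the chromatin protein HMGA2, of the mRNA-binding proteins IGF2BP1, IGF2BP2 and IGF2BP3, and of TRIM71 (LIN41), an RNA-binding ubiquitin ligase of the early embryo. HMGA1 and HMGA2 bind the minor groove of AT-rich DNA and are known for high levels in embryonic and proliferating cells.

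The mature let-7 sequences are shown because their seed is what these messages are known to share as a target. RefSeq (GRCm38.p6) gave 9 mature 5p sequences of the let-7 family from 11 loci, and all 9 held the same seed at bases 2 to 8, in capitals:
mmu-let-7a-5p: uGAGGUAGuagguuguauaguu
mmu-let-7b-5p: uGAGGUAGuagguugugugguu
mmu-let-7c-5p: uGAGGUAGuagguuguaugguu
mmu-let-7d-5p: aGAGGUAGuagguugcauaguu
mmu-let-7e-5p: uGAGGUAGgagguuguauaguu
mmu-let-7f-5p: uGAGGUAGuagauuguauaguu
mmu-let-7g-5p: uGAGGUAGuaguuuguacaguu
mmu-let-7i-5p: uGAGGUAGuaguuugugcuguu
mmu-miR-98-5p: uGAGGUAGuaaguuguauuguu

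LIN28 proteins are known to bind GGAG in the loop side of let-7 hairpins. This motif followed the 5p arm in 8 of the 11 hairpins, and 1 hairpin with it and 1 without it are printed, with GGAG in capitals. The Mirlet7g hairpin lies at chr9:106178840-106178927 on the plus strand and the Mirlet7b hairpin at chr15:85707319-85707403 on the plus strand (GRCm38).
Mirlet7g: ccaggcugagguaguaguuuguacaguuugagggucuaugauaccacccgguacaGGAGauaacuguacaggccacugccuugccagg
Mirlet7b: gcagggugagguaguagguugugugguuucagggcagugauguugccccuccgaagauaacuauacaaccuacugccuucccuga
The annotation held 12 let-7 loci and 0 of them had a row in the count files, so that the microRNAs themselves were not analysed here.

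The complement of the shared seed, CTACCTC, was searched on the sense strand of the longest annotated 3′ UTR of each gene. It occurred in 8 of the 10 genes, 21 times in all. Lin28b, Hmga2, Igf2bp1 and Trim71 held 4 matches each, Lin28a held 2, and Hmga1, Igf2bp2 and Igf2bp3 held 1 each, whereas Dicer1 and Dis3l2 held none in this window. Of the 14331 tested genes with an annotated 3′ UTR, 10.348% held at least 1 match, and 3.635% held a match followed by A. The UTRs of 8 of these genes ran from 1784 bases in Igf2bp2 to 6337 in Igf2bp1, against a median of 1127 over all, while Hmga1 had 1183 and Dis3l2 350. The 8 genes with a match held 4.72 to 13.3 matches per 10 kb and Dicer1 and Dis3l2 held 0, where all tested genes together held 0.737. The 8 were picked here for having a match, which most genes lack, so their higher density was largely fixed in advance and is no test. A match is a stretch of letters and no measure of let-7 binding. For each of the 8 genes the site nearest to the stop codon is printed, with the match in capitals. The coordinates are of GRCm38, Hmga1 lies on the plus strand and the others on the minus strand.
Lin28a, chr4:134005182-134005211: gcacagcctgttgaaCTACCTCatttttgc
Lin28b, chr10:45381015-45381044: acccgggcgggaagtCTACCTCatgcaagc
Hmga1, chr17:27563277-27563306: tcctctgttcacaaaCTACCTCtggacggt
Hmga2, chr10:120364217-120364246: gccgacattcaatttCTACCTCagcatcag
Igf2bp1, chr11:95961771-95961800: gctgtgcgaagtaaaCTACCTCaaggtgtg
Igf2bp2, chr16:22059466-22059495: acacacaaataaaagCTACCTCaggtgttt
Igf2bp3, chr6:49086780-49086809: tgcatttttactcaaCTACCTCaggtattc
Trim71, chr9:114512465-114512494: aacattgcctaagtcCTACCTCagcttaaa
In Trim71 all 4 matches were followed by A, in Igf2bp1 3 of 4, in Lin28a both, and in Lin28b and Hmga2 only the printed one.

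**Figure D1:**
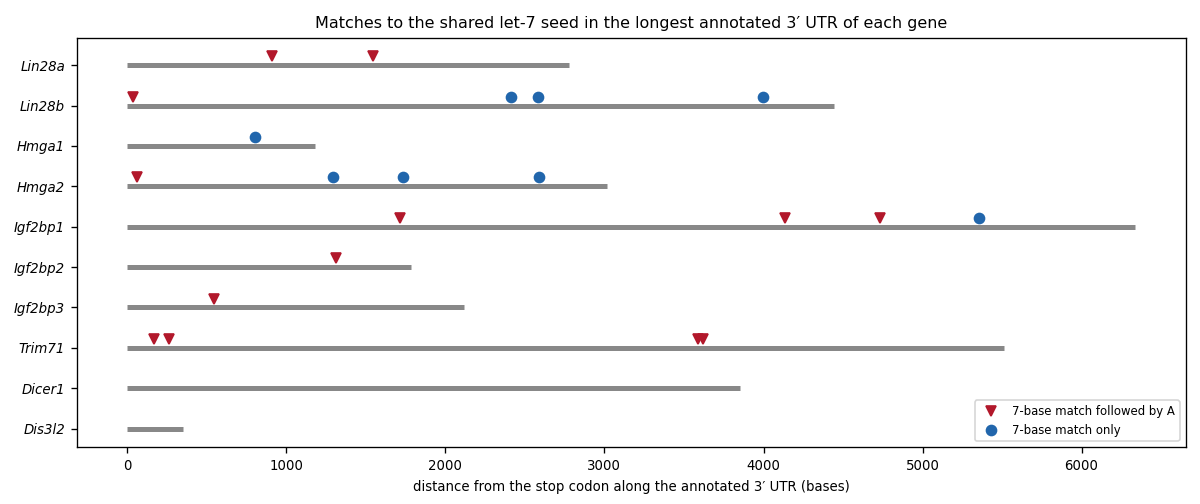
Each grey bar is the longest annotated 3′ UTR of a gene, drawn to scale from the stop codon (x axis, bases), with every match to the complement of the let-7 seed. Triangles mark matches followed by A and circles the others. Dicer1 and Dis3l2 have none.

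The mRNA of each culture was measured by QuantSeq, which counts reads from the 3′ end of transcripts. Libraries held 1366951 to 3648787 gene counts with a median of 2402467.5, and 3 counts corresponded to 0.822 to 2.19 CPM (counts scaled to a common library size). Levels below are CPM on TMM-scaled library sizes, which compare a gene between groups and not genes with each other. Reads outside annotated genes numbered 24.5 to 30.2 per 100 gene counts in day 0 libraries and 11.3 to 18.7 in day 4 libraries. Within day 4 they numbered 16.9 to 17.5 in C1T, 14.3 to 18.7 with the drugs withdrawn and 11.3 to 13.1 with the drugs kept. Ctnnb1 reads, in which the transgene and any residual endogenous transcript cannot be separated, lay at 5.19 to 11.0 CPM in C1, 9.45 to 17.7 in C1M and 34.9 to 48.7 in C1H. At day 4 they lay at 7.18 to 12.4 CPM in C1T, 6.91 to 12.1 in C1MV, 4.13 to 8.60 in C1HV, 25.4 to 34.1 in C1MDT and 28.3 to 36.3 in C1HDT. The fold of Ctnnb1 passed the test in C1H (log2 fold change 2.37 against C1, adjusted p = 6.48e-20) and missed it in C1M (0.61, adjusted p = 0.0553). Naive pluripotency markers (11 genes) summed to 7079 to 8928 CPM at day 0, where the labels give pluripotent culture. Dppa3 of that list was near 0, at means of 0.435 to 0.857 CPM.

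Cell type markers moved with the groups at day 4. The naive markers summed to 1331 to 1713 CPM in C1T, 2719 to 3385 in the groups with drugs withdrawn and 1497 to 1803 in the groups with drugs kept. Klf5 made up most of that sum at day 4, with a mean of 1024 CPM in C1T and of 1248 to 1975 in the induced groups. Of the 11 naive genes, 9 were higher and 1 lower than in C1T in C1MV and 8 and 1 in C1HV. In C1MDT 2 were higher and 5 lower, and in C1HDT 3 and 4. The median log2 fold changes were 0.95, 0.85, -0.29 and -0.20 in the same order, where 30.2%, 28%, 33.4% and 33.5% of all tested genes passed. With the drugs kept, more of the naive genes that passed lay below C1T than above it. Shared pluripotency markers (6 genes, among them Pou5f1 and Sox2) summed to 1366 to 1525 CPM in C1T, 939 to 1204 with withdrawal and 780.5 to 932 with the drugs kept, so that C1T lay above every induced library. Sox2 went the other way with withdrawal, at means of 443 CPM in C1T, 461 in C1MV and 522 in C1HV. It was at 264 in C1MDT and 257 in C1HDT. Every other gene of the list had its highest day 4 mean in C1T. Utf1 had 299 CPM there against 87.2 to 136 in the induced groups, and Tdgf1 254 against 112 to 137. Formative and post-implantation epiblast markers (7 genes, among them Fgf5, Otx2 and Pou3f1) summed to 135 to 199 CPM at day 0. At day 4 they summed to 2122 to 2532 in C1T, 827 to 986 with withdrawal and 1368 to 1499.8 with the drugs kept. Otx2 did not share this order, as its C1T mean of 308 CPM lay below those of C1MDT (321) and C1HDT (344). With withdrawal its means were lower, at 279 (C1MV) and 293 (C1HV). The remaining genes had their highest day 4 means in C1T. Dnmt3a had 798 CPM there against 154 to 286 in the induced groups, and Lef1 270 against 76.7 to 132. Endoderm markers (8 genes, among them Gata6, Gata4 and Sox17) summed to 13.0 to 42.7 CPM at day 0, 11.1 to 24.8 in C1T, 247 to 397 with withdrawal and 545 to 675 with the drugs kept. Dab2 made up most of that sum, with a mean of 11.2 CPM in C1T and of 233 to 448 in the induced day 4 groups. In C1T 3 of the 8 endoderm genes had at most 3 counts in every library (Sox17, at a mean of 0.240 CPM, among them), against 1 of 8 in C1MV and in C1HV and 0 in C1MDT and C1HDT. Neural markers summed to 39.7 to 55.2 CPM at day 0, 176 to 212 in C1T, 206 to 254 with withdrawal and 234 to 281 with the drugs kept. Trophoblast markers summed to 39.4 to 60.9 CPM at day 0, 32.9 to 42.4 in C1T and 49.6 to 87.1 in the induced day 4 groups, which C1T did not overlap. Of these, the keratins Krt8 and Krt18 had means of 3.22 and 11.1 CPM in C1T and of 11.8 to 19.9 and 23.95 to 30.1 in the induced groups, and the defining markers Cdx2 and Elf5 had means of 0.582 CPM and 0 in C1T and of at most 0.629 CPM and 0 in the induced groups. Ascl2 had a mean of 4.14 CPM in C1T and means of 5.32 to 8.90 in the induced groups. Eomes had a mean of 18.7 CPM in C1T, within the 13.3 to 19.6 of the induced groups. Mesoderm markers summed to 12.5 to 20.2 CPM at day 0 and 2.75 to 10.0 at day 4, and fibroblast markers lay between 7.54 and 21.6 with overlap between C1T and every induced group. In such bulk samples, fewer cells of a type and less RNA per cell cannot be told apart. The part of these markers in the results below was not tested.

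**Figure D2:**
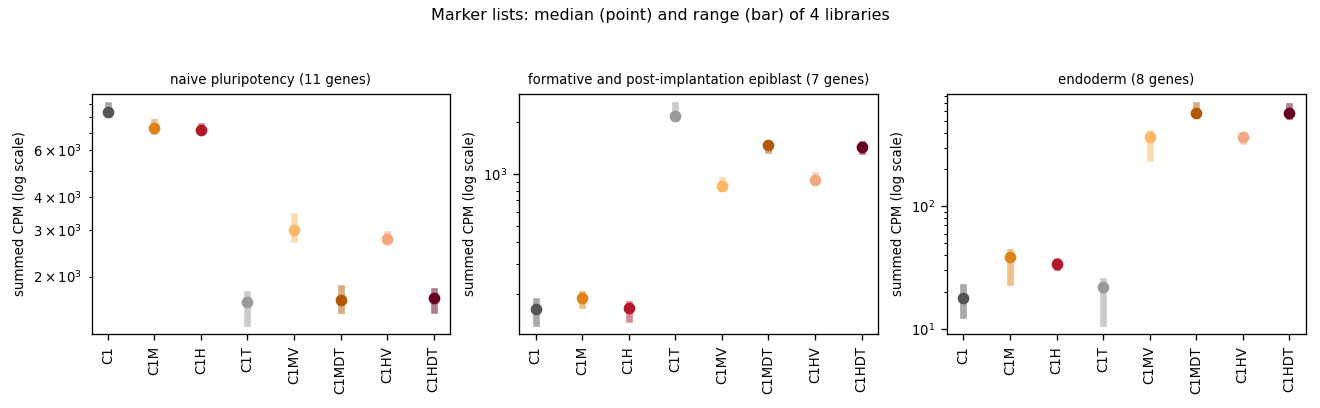
Summed CPM (y axes, log scale) of naive pluripotency, formative epiblast and endoderm marker lists in the 8 groups. The point is the median and the bar the range of 4 libraries. Endoderm markers were at 11.1 to 24.8 in C1T and at 247 to 675 in the induced day 4 groups.

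Induction of the β-catenin transgene under pluripotent conditions went with lower Igf2bp1, Igf2bp3, Trim71, Dicer1 and Dis3l2 and with higher Hmga2 in both sorted fractions. Against C1, 6 genes passed the test in C1M, with Hmga2 higher and Igf2bp1, Igf2bp3, Trim71, Dicer1 and Dis3l2 lower. In C1H 9 genes passed, with Hmga2 and Lin28b higher and Lin28a and all of Igf2bp1, Igf2bp2, Igf2bp3, Trim71, Dicer1 and Dis3l2 lower. Over all tested genes 26.3% passed in C1M and 25.9% in C1H, and both comparisons share the C1 libraries. The C1M and C1H cells differed from C1 in dox, in the transgene and in the mCherry gate, and these cannot be told apart. The median log2 fold change of the 10 genes was -0.35 in C1M and -0.39 in C1H, against 0.06 and 0.04 over all tested genes. With scaling to library size only, the split in C1M was 2 higher and 4 lower, since Lin28b passed (adjusted p = 0.044) and Dis3l2 did not (adjusted p = 0.0707). The count in C1H fell to 5 genes without C1 replicate 1. Markers moved with induction as well: the naive markers summed to 8254 to 8928 CPM in C1, 7079 to 7696 in C1M and 7100 to 7407 in C1H, and the endoderm markers to 13.0 to 22.1, 23.9 to 42.7 and 32.03 to 35.7. C1 overlapped neither induced group in these sums. The naive genes were split: Esrrb, Klf2, Klf4, Tfcp2l1, Zfp42 and Tbx3 had lower means in both fractions than in C1. Klf4 had 1285 CPM in C1, 756 in C1M and 869 in C1H, and Tfcp2l1 1691, 1237 and 1202. Klf5 (2981, 3344 and 3059), Prdm14 and the very low Dppa3 had higher means in both fractions. Nr0b1 and Tcl1 had higher means in C1M and lower means in C1H. The shared pluripotency markers summed to 1739 to 1844 CPM in C1, 1658 to 1775 in C1M and 1590.5 to 1680.4 in C1H, and the trophoblast markers to 53.8 to 60.9, 39.4 to 51.2 and 48.1 to 53.5. Eomes made up most of the trophoblast sum, at means of 40.5 CPM in C1, 26.9 in C1M and 33.1 in C1H. The part of these lists in the results was not tested.

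C1H and C1M differ in sorted mCherry. None of the 10 passed edgeR's test, none passed DESeq2, and 1, Lin28a, had an unadjusted p under 0.05, where 1.77% of all tested genes passed. The Lin28a difference was -0.80 (95% CI -1.49 to -0.12, adjusted p = 0.292) and passed without the filter on low counts (adjusted p = 0.0194). The intervals of Igf2bp1, Igf2bp2, Igf2bp3, Trim71 and Dicer1 lay within -0.30 to 0.31, and those of Lin28b (-0.14 to 0.55), Hmga2 (-0.41 to 0.04), Dis3l2 (-0.32 to 0.22) and Hmga1 (-1.34 to 1.26) were wider.

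**Figure D3:**
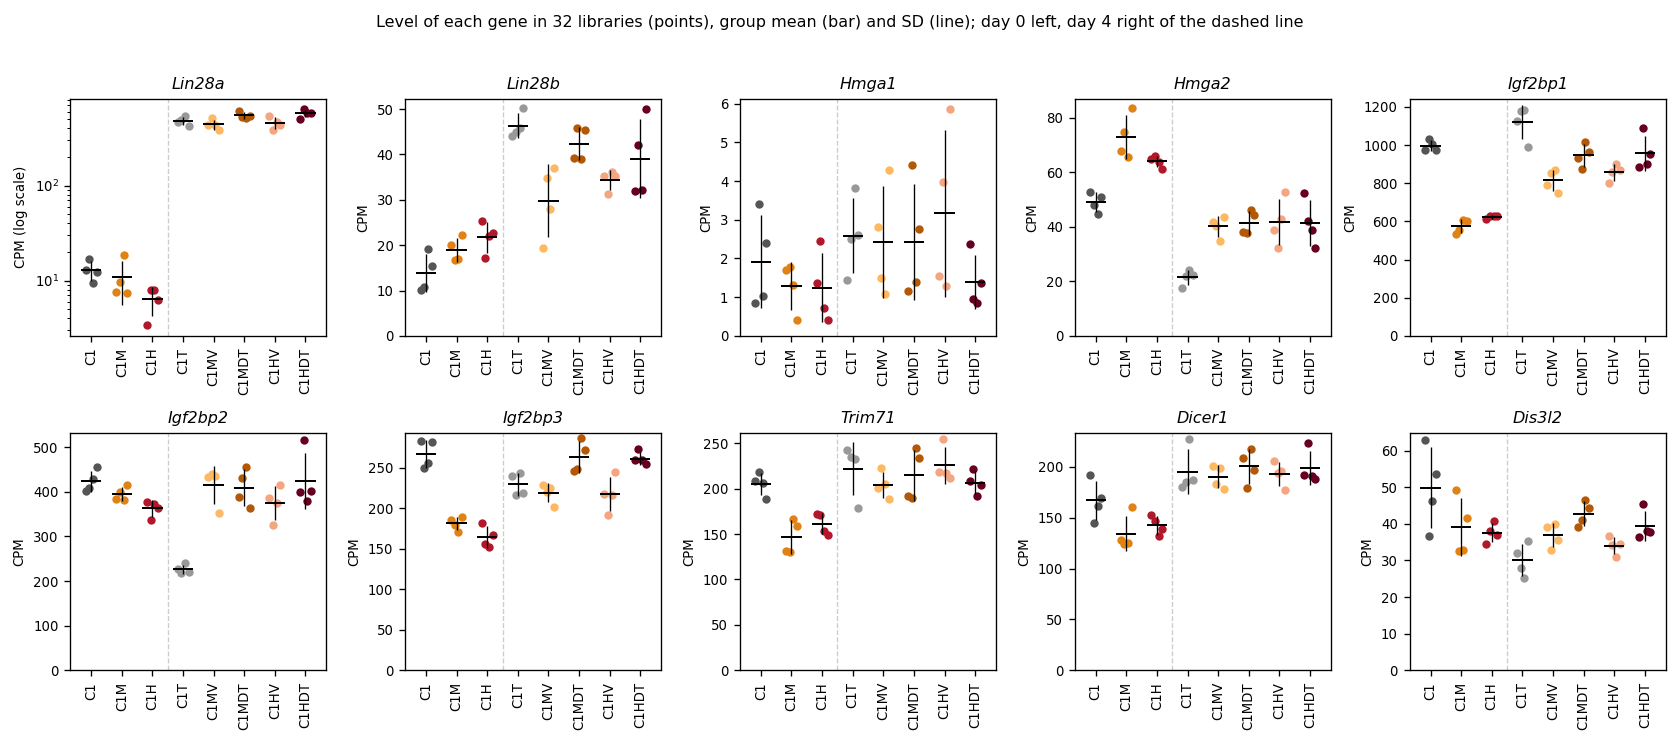
CPM of each of the 10 genes (y axes, log scale for Lin28a only) in the 32 libraries by group, with the group mean (bar) and SD (line). Lin28a lies between 3.41 and 18.6 CPM in day 0 libraries and between 386 and 633 in day 4 libraries, and in Hmga2 and Igf2bp2 the C1T group is the lowest.

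From day 0 to day 4 the largest change in these genes was the rise of Lin28a, and Hmga2 fell in every arm. In uninduced cells (C1T against C1) 8 of the 10 genes passed, with Lin28a, Lin28b, Igf2bp1 and Dicer1 higher and Hmga2, Igf2bp2, Igf2bp3 and Dis3l2 lower, where 49.3% of all tested genes passed. In the induced arms 7 genes passed in C1MV against C1M (6 higher, 1 lower), 7 in C1MDT against C1M (6 and 1), 7 in C1HV against C1H (6 and 1) and 8 in C1HDT against C1H (7 and 1). The shares over all tested genes were 45.9%, 52.4%, 47% and 55.7%. In each of these 4 arms Lin28a, Lin28b, Igf2bp1, Igf2bp3, Trim71 and Dicer1 rose and Hmga2 fell, and Igf2bp2 also passed in C1HDT. The medians of the 10 genes were 0.15 in C1T and 0.49, 0.57, 0.45 and 0.41 in the induced arms in the same order, against 0.01, -0.04, -0.06, -0.06 and -0.06 over all tested genes. The pairs of arms that start from C1M, or from C1H, share those day 0 libraries.

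The change over time differed between induced and uninduced arms for many of these genes. The interaction with C1T against C1 passed for 6 genes in C1MV (5 with a change more positive than in C1T, 1 with a change less positive), 6 in C1MDT (6 and 0), 7 in C1HV (6 and 1) and 7 in C1HDT (6 and 1), all sharing the C1 and C1T libraries. Over all tested genes 22.5%, 24.4%, 21.9% and 25.2% passed. Igf2bp1, Igf2bp2, Igf2bp3 and Dis3l2 passed in all 4 arms, each with a change more positive than in C1T.

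**Figure D4:**
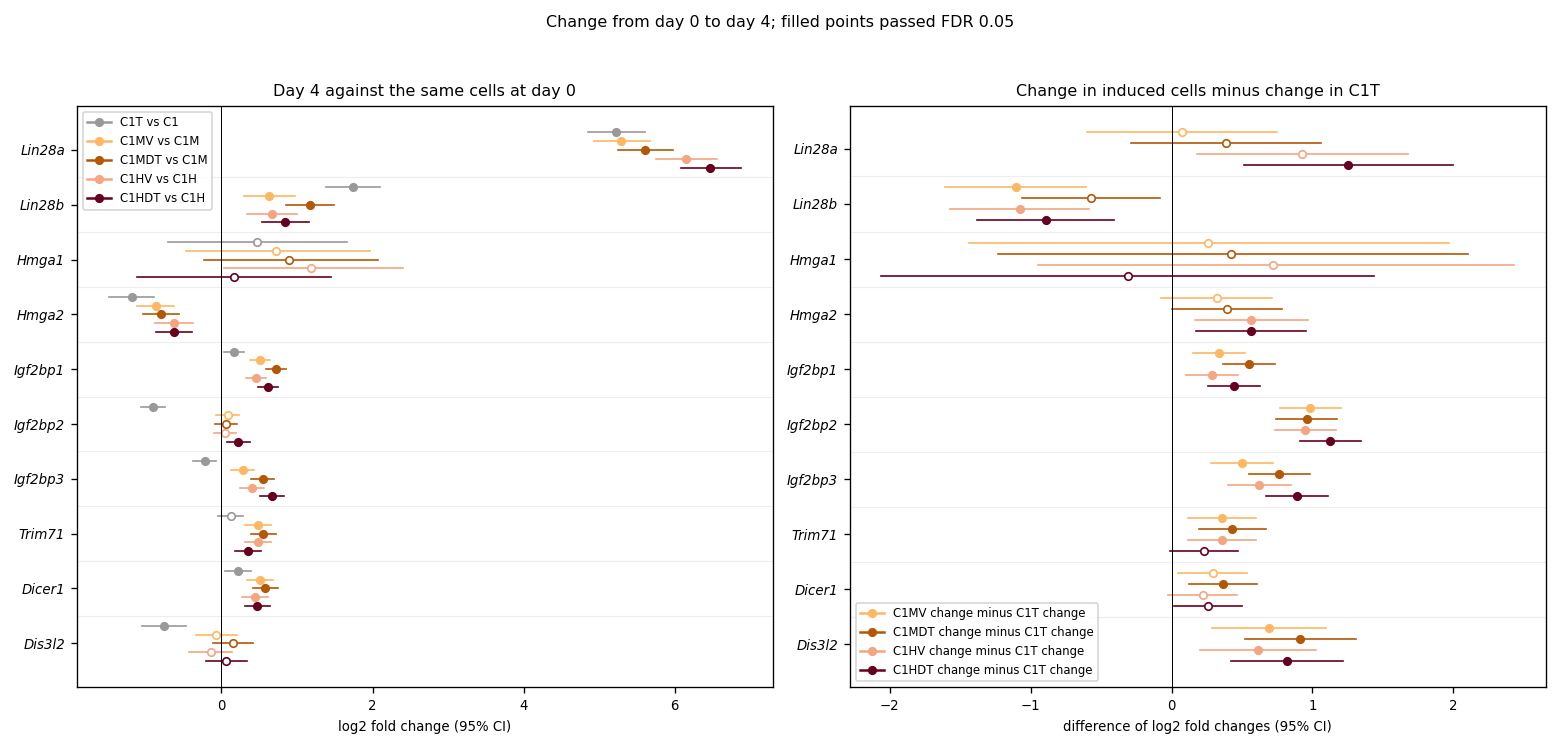
Left, log2 fold change (x axis, 95% CI) from day 0 to day 4 of each gene in the 5 arms. Right, the same change in each induced arm minus that in C1T. Filled points passed FDR 0.05. Lin28a lies between 5.22 and 6.47 on the left, and Igf2bp2 between 0.95 and 1.13 on the right.

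At day 4, previously induced cells had more Hmga2 and Igf2bp2 and less Igf2bp1 than C1T. Against C1T, 4 genes passed in C1MV (2 higher, 2 lower), 5 in C1MDT (4 and 1), 4 in C1HV (2 and 2) and 4 in C1HDT (3 and 1), where 30.2%, 33.4%, 28% and 33.5% of all tested genes passed. These 4 comparisons share the C1T libraries, which had TMP without dox, whereas the withdrawn groups had neither drug and the kept groups had both. In C1HV the split was 2 higher and 1 lower with scaling to library size only and with DESeq2, where Lin28b missed the threshold (adjusted p = 0.0926 and 0.0551).

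Keeping the drugs, against withdrawing them, went with higher Igf2bp3 in both arms. It also went with fewer reads outside genes, without overlap in either arm, and the part of this was not tested. In C1MDT against C1MV 3 genes were higher, Lin28b, Igf2bp1 and Igf2bp3, and in C1HDT against C1HV only Igf2bp3 was, where 12.6% and 16% of all tested genes passed. The first count was 1 without C1MV replicate 1 and 1 without C1MDT replicate 3. The second was 0 without C1HV replicate 2 or C1HDT replicate 2. None of the 10 genes passed edgeR's test of a different response in the C1M and C1H arms, with 0 at an unadjusted p under 0.05 and 0 by DESeq2, where 0% of all tested genes passed. None differed between C1HV and C1MV (1 at an unadjusted p under 0.05, 0 by DESeq2, 0.00654% of all tested genes passing edgeR's test) or between C1HDT and C1MDT (0 at an unadjusted p under 0.05, 0 by DESeq2, 0% of all tested genes).

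**Figure D5:**
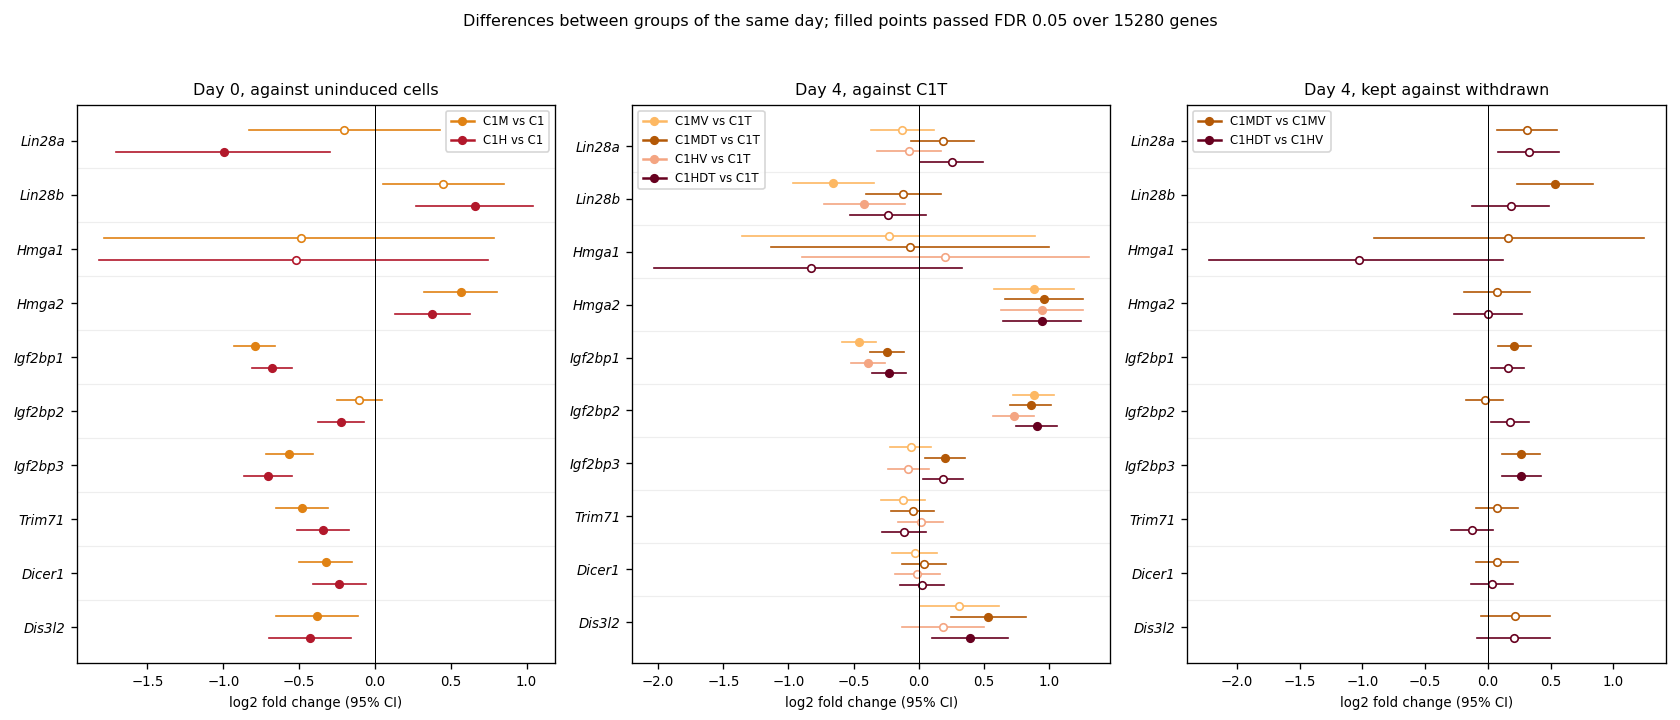
Log2 fold change (x axes, 95% CI) of each gene between groups of the same day. The panels show C1M and C1H against C1, the 4 induced day 4 groups against C1T, and drugs kept against withdrawn. Filled points passed FDR 0.05 over 15280 genes. Hmga2 lies at 0.88 to 0.96 and Igf2bp2 at 0.73 to 0.90 against C1T.

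Lin28a (ENSMUSG00000050966, chr4:134003330-134018841, minus strand, GRCm38) was low at day 0 and high at day 4 in all arms. It is the LIN28 protein of early embryonic cells, best known as a factor that helps to reprogram somatic cells. The C1 libraries held 13.0, 17.0, 9.34 and 12.5 CPM, the C1M libraries 7.64, 9.58, 18.6 and 7.43, and the C1H libraries 3.41, 8.02, 8.06 and 6.31, from 10 to 57 reads each. All 4 C1H libraries lay below all 4 C1 libraries, whereas C1M overlapped both. The C1H mean of 6.45 ± 2.19 (SD, n = 4) was 0.498 of the C1 mean of 13.0 ± 3.14 (log2 fold change -0.998, SE 0.34, adjusted p = 0.0307). This call was lost without any of C1 replicate 1 (adjusted p = 0.0617), C1 replicate 2 (0.0875), C1H replicate 1 (0.0785) or C1H replicate 4 (0.0531).

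At day 4 the C1T libraries held 465, 494, 543 and 422 CPM of Lin28a, 37.1-fold the C1 mean (log2 fold change 5.22, SE 0.19, adjusted p = 4.58e-20). The C1MV libraries held 431, 511, 430.3 and 386 CPM and the C1MDT libraries 614, 523, 519 and 537. The C1HV libraries held 544, 388, 463 and 433 and the C1HDT libraries 503, 633, 575 and 585. All 20 day 4 libraries lay above all 12 day 0 libraries, and neighbouring groups in the order of means at day 4 overlapped. The means were 40.7, 50.7, 70.9 and 89.0 times those of the own day 0 group in C1MV, C1MDT, C1HV and C1HDT (log2 fold changes 5.29, 5.60, 6.14 and 6.47). The rise in C1HDT exceeded that in C1T by 1.25 on the log2 scale (SE 0.36, adjusted p = 0.0106), and that in C1HV by 0.92 (adjusted p = 0.0685). The C1HV difference passed without the filter (0.000804), with genes at 1 CPM or more in all libraries (0.0492), on only the groups compared (0.00232), with DESeq2 (0.00906) and in 10 of the 32 fits that left out a library. At day 4 itself the differences from C1T were smaller (-0.13 and -0.07 in C1MV and C1HV, 0.18 and 0.25 in C1MDT and C1HDT, none past the threshold). C1MDT exceeded C1MV by 0.31 (adjusted p = 0.0838) and C1HDT exceeded C1HV by 0.33 (adjusted p = 0.0589). Fitted on only the groups compared, both passed (adjusted p = 0.00915 and 0.00495), as they did without the filter on low counts (0.00105 and 0.000656), and so did the differences of C1MDT and C1HDT from C1T (0.0241 and 0.00227 on only the groups compared, 0.0482 and 0.00486 without the filter). With a library left out, the drugs-kept difference passed in 4 of 32 fits for C1MDT (adjusted p = 0.00616 to 0.0437) and in 5 for C1HDT (0.00538 to 0.0442), and both did so without C1M replicate 3 (0.00616 and 0.00538), the highest day 0 library at 18.6 CPM. Without that library the interaction with C1T also passed in C1MDT (0.85 in place of 0.38, adjusted p = 0.0155). C1HDT against C1T passed without it (0.0123) and without C1HDT replicate 1 (0.0424). An annotated gene on the opposite strand that overlaps the 3′ end of Lin28a, Gm13061, had 0 counts.

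Lin28b (ENSMUSG00000063804, chr10:45376620-45486395, minus strand, GRCm38), the paralog that also holds back let-7, was higher in C1H than in C1 at day 0 and rose less over time in 3 of the 4 induced arms. The C1 libraries held 10.1, 10.8, 19.2 and 15.3 CPM, the C1M libraries 20.0, 16.7, 17.0 and 22.3, and the C1H libraries 25.2, 17.1, 22.0 and 22.7, from 19 to 74 reads each. C1 replicate 3 overlapped both induced groups. C1H exceeded C1 by 0.66 on the log2 scale (SE 0.20, adjusted p = 0.00616), a call lost without C1 replicate 1 (adjusted p = 0.0794). C1M exceeded C1 by 0.45 (SE 0.20, adjusted p = 0.083), which passed without C1 replicate 3 (adjusted p = 0.0261).

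At day 4 the C1T libraries held 44.1, 45.0, 45.8 and 50.3 CPM of Lin28b, above all C1 libraries (log2 fold change 1.74, SE 0.18, adjusted p = 3.6e-16). The C1MV libraries held 19.4, 34.8, 27.99 and 37.1 and the C1MDT libraries 39.2, 45.7, 39.1 and 45.4, without overlap. The C1HV libraries held 35.1, 31.2, 36.1 and 35.1 and the C1HDT libraries 31.97, 42.0, 32.3 and 50.1, with overlap. C1MV lay below C1T in all libraries (-0.66, SE 0.16, adjusted p = 0.000337), as did C1HV (-0.42, SE 0.16, adjusted p = 0.033). The C1HV call was lost without any of C1T replicates 2, 3 and 4 or of the 4 C1HV replicates (adjusted p = 0.0528 to 0.105). The rise from day 0 was smaller than in C1T by 1.11 in C1MV (adjusted p = 0.000303), by 1.08 in C1HV (adjusted p = 0.000394) and by 0.89 in C1HDT (adjusted p = 0.00269), and the difference of -0.57 in C1MDT missed the threshold (adjusted p = 0.0804) but passed without C1 replicate 3 (-0.73, adjusted p = 0.0317). C1MDT exceeded C1MV by 0.54 (SE 0.15, adjusted p = 0.00815), which was lost without C1MV replicate 1 (adjusted p = 0.127).

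Hmga2 (ENSMUSG00000056758, chr10:120361275-120476469, minus strand, GRCm38) was higher with induction in both fractions at day 0 and fell over time in every arm. In the induced arms the other genes that passed rose over time, whereas in C1T Igf2bp2, Igf2bp3 and Dis3l2 fell as well. The C1 libraries held 52.9, 48.1, 44.6 and 50.8 CPM, the C1M libraries 67.9, 74.9, 65.5 and 83.8, and the C1H libraries 65.1, 65.9, 63.8 and 61.4. Every induced library lay above every C1 library. The difference was 0.56 in C1M (SE 0.12, adjusted p = 0.000125) and 0.38 in C1H (SE 0.12, adjusted p = 0.0146), and the second was lost without C1 replicate 3 (adjusted p = 0.0657) or C1H replicate 2 (0.055).

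At day 4 the C1T libraries held 17.8, 22.1, 24.3 and 22.2 CPM of Hmga2, below every other library (log2 fold change -1.19 against C1, SE 0.15, adjusted p = 1.01e-11). The C1MV libraries held 41.9, 40.4, 34.9 and 43.5 and the C1MDT libraries 38.1, 37.6, 46.1 and 44.4. The C1HV libraries held 38.8, 32.4, 43.0 and 52.7 and the C1HDT libraries 52.4, 42.0, 38.96 and 32.3. The 4 induced groups overlapped each other and all lay above C1T, by 0.88 in C1MV (SE 0.16, adjusted p = 8.74e-07), 0.96 in C1MDT (SE 0.15, adjusted p = 4.3e-08), 0.94 in C1HV (SE 0.16, adjusted p = 3.12e-07) and 0.94 in C1HDT (SE 0.15, adjusted p = 7.85e-08). Against their own day 0 they fell by 0.87, 0.80, 0.63 and 0.63 on the log2 scale. This fall was smaller than in C1T in C1HV (interaction 0.56, adjusted p = 0.032) and C1HDT (0.56, adjusted p = 0.0243). The C1HV interaction was lost without C1T replicate 1 (adjusted p = 0.0899) or C1HV replicate 4 (0.0904), and the C1HDT interaction without C1T replicate 1 (0.0887) or C1HDT replicate 1 (0.107). Endoderm markers summed to 11.1 to 24.8 CPM in C1T and to 247 to 675 in the 4 induced groups, so that at day 4 they moved with the higher Hmga2. The trophoblast marker sum did so as well (32.9 to 42.4 and 49.6 to 87.1 CPM), but not Eomes of that list (means of 18.7 and 13.3 to 19.6 CPM). At day 0 the endoderm markers summed to 13.0 to 42.7 CPM, while Hmga2 was at 44.6 to 83.8 CPM, above C1T in every library.

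Hmga1 (ENSMUSG00000046711, chr17:27556497-27563674, plus strand, GRCm38) gave 148 counts in all 32 libraries, 1 to 12 in each. Its group means ran from 1.24 CPM in C1H to 3.17 in C1HV, all groups overlapped, and no comparison passed the test. C1HV against C1H was at 1.19 (SE 0.60, adjusted p = 0.0839) and passed without C1H replicate 2 (1.75, adjusted p = 0.0278), C1HV replicate 1 (0.0438) or C1HV replicate 3 (0.0353). In 100-base windows over the last 500 bases of its coding transcripts, 916 of 1831 (50.03%) were identical to windows of the copy Hmga1b (ENSMUSG00000078249, chr11:120762794-120764419), to which unique counting assigned 31 counts. AI413582 overlaps its 3′ end on the opposite strand and had 1446 counts. The level of Hmga1 is therefore uncertain. None of the other members shared such a window with another gene.

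Igf2bp1 (ENSMUSG00000013415, chr11:95957163-96005940, minus strand, GRCm38), which binds and stabilises messages such as those of MYC and β-actin, had the largest drop of the 10 genes in C1M. The C1 libraries held 972, 1032, 1007 and 975 CPM, the C1M libraries 535, 554, 605 and 604, and the C1H libraries 611, 630.1, 628 and 626. The induced libraries reached at most 630.1 and the C1 libraries were at 972 or more. The difference from C1 was -0.79 in C1M (SE 0.07, adjusted p = 1.14e-20) and -0.68 in C1H (SE 0.07, adjusted p = 1.8e-16). All C1H libraries also lay above all C1M libraries, but that difference did not pass (0.12, adjusted p = 0.486). Of all tested genes 8.25% had no overlap between these 2 groups.

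At day 4 the C1T libraries held 1127, 1179.7, 1183 and 992 CPM of Igf2bp1, overlapping C1 (log2 fold change 0.17, SE 0.07, adjusted p = 0.0244). This call was lost in 6 of the 32 fits that left out a library (adjusted p = 0.0503 to 0.0813). The C1MV libraries held 789, 855, 869 and 751 and the C1MDT libraries 932, 873, 1014 and 962. The C1HV libraries held 799, 857, 902 and 867 and the C1HDT libraries 883, 1088, 902 and 951. C1MV and C1HV lay wholly below C1T, and C1MDT and C1HDT overlapped it. The differences from C1T were -0.46 in C1MV (adjusted p = 3.35e-09), -0.25 in C1MDT (0.00149), -0.39 in C1HV (5.12e-07) and -0.23 in C1HDT (0.00292). The rises from day 0 were 0.51, 0.72, 0.46 and 0.62 in the same order, each larger than in C1T, by 0.34, 0.55, 0.29 and 0.44 (adjusted p = 0.0039, 8.65e-07, 0.017 and 6.81e-05). C1MDT exceeded C1MV by 0.21 (adjusted p = 0.0196), which was lost on only the groups compared (0.0714) and without C1MV replicate 1 (0.0612), C1MV replicate 4 (0.0683) or C1MDT replicate 3 (0.113). In C1HDT against C1HV the difference was 0.16 (adjusted p = 0.0943).

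Igf2bp2 (ENSMUSG00000033581, chr16:22059009-22163299, minus strand, GRCm38), known for its part in metabolic regulation and muscle, fell over time in uninduced cells and stayed near its day 0 level in induced ones. The C1 libraries held 401, 409.9, 429 and 455 CPM, the C1M libraries 383, 399, 381 and 414, and the C1H libraries 378, 337, 373 and 365. C1H lay wholly below C1 (-0.22, SE 0.08, adjusted p = 0.0188), a call lost with scaling to library size only (-0.15, adjusted p = 0.138) and without C1 replicate 4 (adjusted p = 0.0743). C1M overlapped C1 (-0.10, adjusted p = 0.333). All C1H libraries lay below all C1M libraries, without passing (-0.12, adjusted p = 0.551), where 8.25% of all tested genes had no overlap.

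At day 4 the C1T libraries held 226, 219, 241 and 220.0 CPM of Igf2bp2, below every other library of the series (log2 fold change -0.90 against C1, SE 0.08, adjusted p = 2.2e-20). The C1MV libraries held 433, 441, 435 and 353 and the C1MDT libraries 388, 431, 456 and 364. The C1HV libraries held 387, 325, 375 and 415 and the C1HDT libraries 400.0, 517, 380.4 and 402. The induced groups overlapped each other and lay above C1T by 0.88 in C1MV (SE 0.08, adjusted p = 3.7e-19), 0.86 in C1MDT (SE 0.08, adjusted p = 1.46e-18), 0.73 in C1HV (SE 0.08, adjusted p = 4.56e-14) and 0.90 in C1HDT (SE 0.08, adjusted p = 5e-20). Against their own day 0 the differences were 0.08 in C1MV, 0.06 in C1MDT and 0.05 in C1HV, none past the threshold, although C1MV passed without C1MV replicate 4 (0.19, adjusted p = 0.0353). In C1HDT it was 0.22 (adjusted p = 0.00724), which fell to 0.13 without C1HDT replicate 2 (adjusted p = 0.164) and missed the threshold with scaling to library size only (0.0717) and with genes at 1 CPM or more in all libraries (0.0515). The interactions with C1T were 0.98, 0.96, 0.95 and 1.13 in C1MV, C1MDT, C1HV and C1HDT (adjusted p = 1.41e-13, 4.69e-13, 1.23e-12 and 9.51e-17). The order of groups put C1T apart from the rest, with the other 7 groups overlapping their neighbours. Endoderm marker sums were higher in the same 4 groups, at 247 to 675 CPM against 11.1 to 24.8 in C1T, and at 13.0 to 42.7 in the day 0 groups, where Igf2bp2 lay at 337 to 455. Trophoblast marker sums separated the same groups, at 49.6 to 87.1 CPM against 32.9 to 42.4 in C1T. Eomes of that list did not, with means of 13.3 to 19.6 CPM in the induced groups and 18.7 in C1T.

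Igf2bp3 (ENSMUSG00000029814, chr6:49085223-49214957, minus strand, GRCm38), a fetal form that reappears in many tumours, was lower with induction at day 0 and was higher at day 4 where the drugs were kept. The C1 libraries held 282, 249, 256 and 282 CPM, the C1M libraries 186, 179.5, 171 and 189, and the C1H libraries 182, 156, 152 and 166. No induced library reached a C1 library. The difference was -0.56 in C1M (SE 0.08, adjusted p = 1.42e-09) and -0.70 in C1H (SE 0.08, adjusted p = 1.4e-13). Malsu1 overlaps the 3′ end on the opposite strand, with 3359 counts against 17087 for Igf2bp3, and the strand setting of the counting is not given in the sources used here.

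At day 4 the C1T libraries held 239.9, 216, 243 and 219 CPM of Igf2bp3, below all C1 libraries (log2 fold change -0.22, SE 0.08, adjusted p = 0.0134). This call was lost without C1 replicate 1 (adjusted p = 0.0522), C1 replicate 4 (0.0595) or C1T replicate 2 (0.066). The C1MV libraries held 229, 220.2, 225 and 202 and the C1MDT libraries 246, 249, 286 and 272. The C1HV libraries held 217, 192, 216 and 245 and the C1HDT libraries 259.5, 273, 259 and 254. In both arms every library with the drugs kept lay above every library with the drugs withdrawn, by 0.26 in C1MDT against C1MV (SE 0.08, adjusted p = 0.0104) and 0.27 in C1HDT against C1HV (SE 0.08, adjusted p = 0.00954). The first was lost without C1MDT replicate 3 (adjusted p = 0.0801), and the second without C1HV replicate 2 (0.0918) or C1HDT replicate 2 (0.0534). All C1MDT and C1HDT libraries also lay above all C1T libraries, by 0.20 (adjusted p = 0.0335) and 0.19 (adjusted p = 0.054). The C1MDT call was lost without C1T replicate 2 (0.0683) or C1MDT replicate 3 (0.11), and the C1HDT difference passed with scaling to library size only (0.0206), in a fit of the compared groups alone (0.0362) and in 16 of the 32 fits that left out a library. The rises from day 0 were 0.28, 0.54, 0.40 and 0.67 in C1MV, C1MDT, C1HV and C1HDT, and exceeded the change in C1T by 0.50, 0.77, 0.62 and 0.89 (adjusted p = 0.00019, 5.84e-09, 3.48e-06 and 1.95e-11).

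Trim71 (ENSMUSG00000079259, chr9:114507133-114564369, minus strand, GRCm38) was lower with induction at day 0, and its groups overlapped at day 4. It ran from 189 to 218 CPM in C1, 131 to 167 in C1M and 149 to 172 in C1H, so that no induced library reached a C1 library. The difference was -0.48 in C1M (SE 0.09, adjusted p = 3.47e-06) and -0.34 in C1H (SE 0.09, adjusted p = 0.000978). At day 4 it ran from 179 to 242 CPM in C1T, 188 to 223 in C1MV, 190.2 to 244 in C1MDT, 211 to 255 in C1HV and 191 to 222 in C1HDT. C1T did not differ from C1 past the threshold (0.12, adjusted p = 0.242), although without C1T replicate 4 it did (adjusted p = 0.0424). The induced arms rose by 0.48, 0.55, 0.48 and 0.35 from their own day 0 (adjusted p = 9.83e-07, 8.28e-09, 8.15e-07 and 0.00017 in C1MV, C1MDT, C1HV and C1HDT). The excess over C1T was 0.36 in C1MV (adjusted p = 0.0222), 0.43 in C1MDT (0.00373), 0.36 in C1HV (0.022) and, without passing, 0.23 in C1HDT (0.159). It was lost in C1MV without C1M replicate 2 (0.0542) or C1T replicate 4 (0.0623), and in C1HV without C1T replicate 4 (0.0576).

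Dicer1 (ENSMUSG00000041415, chr12:104687742-104751952, minus strand, GRCm38), the nuclease of microRNA maturation, lay between 124 and 228 CPM in all 32 libraries. It ran from 145 to 192 CPM in C1, 124 to 160.2 in C1M and 132 to 152 in C1H, with overlap. It was lower in C1M (-0.32, SE 0.09, adjusted p = 0.00259) and in C1H (-0.23, SE 0.09, adjusted p = 0.0354). The C1H call was lost with scaling to library size only (-0.15, adjusted p = 0.182), without the filter (0.0568), with genes at 1 CPM or more in all libraries (0.0574) and with DESeq2 (0.0611), and without C1 replicate 1 (0.169), C1 replicate 4 (0.0607), C1H replicate 3 (0.0708) or C1H replicate 4 (0.057). At day 4 all 5 groups lay between 178 and 228 CPM. C1T exceeded C1 by 0.22 (SE 0.09, adjusted p = 0.0285), which was lost without C1 replicate 2 (0.112), C1H replicate 4 (0.0518) or C1T replicate 3 (0.14, adjusted p = 0.213). The induced arms rose by 0.51, 0.58, 0.44 and 0.48 from day 0, and the excess over C1T passed in C1MDT (0.36, adjusted p = 0.019). It was 0.29 in C1MV (adjusted p = 0.0749), which passed in 17 of the 32 fits that left out a library, 0.22 in C1HV (0.204), and 0.26 in C1HDT (0.113), which passed without C1 replicate 2 (0.0363) or C1T replicate 3 (0.0398).

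Dis3l2 (ENSMUSG00000053333, chr1:86703808-87050095, plus strand, GRCm38), the exonuclease for uridylated precursors, had its lowest levels in C1T. It ran from 36.8 to 63.0 CPM in C1, 32.6 to 49.2 in C1M and 34.4 to 40.7 in C1H. It was lower in C1M (-0.38, SE 0.14, adjusted p = 0.0261) and in C1H (-0.43, SE 0.14, adjusted p = 0.0112), with overlap. The C1M call was lost without C1 replicate 1 (0.197), C1 replicate 4 (0.0717), C1M replicate 2 (0.0872) or C1M replicate 3 (0.0985), and the C1H call without C1 replicate 1 (0.123). At day 4 it ran from 25.3 to 35.3 CPM in C1T, wholly below C1 (-0.76, SE 0.15, adjusted p = 3.99e-06), and from 32.95 to 39.98 in C1MV, 39.2 to 46.6 in C1MDT, 30.98 to 36.7 in C1HV and 36.4 to 45.4 in C1HDT. Both groups with the drugs kept lay wholly above C1T, by 0.53 in C1MDT (SE 0.15, adjusted p = 0.00194) and 0.39 in C1HDT (SE 0.15, adjusted p = 0.0296). The C1HDT call was lost with DESeq2 (0.0516) and without C1T replicate 2 (0.0705), C1T replicate 3 (0.142) or C1HDT replicate 2 (0.1). No induced arm changed from its own day 0 past the threshold (-0.07, 0.15, -0.14 and 0.06 in C1MV, C1MDT, C1HV and C1HDT), and all 4 interactions with C1T passed (0.69, 0.91, 0.61 and 0.82, adjusted p = 0.00646, 0.000131, 0.022 and 0.0007). In C1HV the interaction was lost without C1 replicate 1 (0.0758) or C1T replicate 3 (0.0557).

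Other genes of the pathway were described from 4 lists. In the list of microRNA processing and decay (26 genes tested), 0 rose and 9 fell in C1M, and 0 rose and 8 fell in C1H, with 6 up and 8 down in C1T against C1. Its median log2 fold changes were -0.26, -0.15 and 0.01 in these comparisons, against 0.06, 0.04 and 0.01 over all tested genes, of which 26.3%, 25.9% and 49.3% passed. Over time in the induced arms, 6 rose and 4 fell in C1MV, 10 and 6 in C1MDT, 7 and 5 in C1HV, and 8 and 9 in C1HDT, where 45.9%, 52.4%, 47% and 55.7% of all tested genes passed. The list's medians there were 0.07, -0.01, 0.01 and -0.04, against -0.06 to -0.04 over all tested genes. Ago2, the slicing Argonaute, fell by 1.02 in C1M (adjusted p = 4.05e-14) and by 0.67 in C1H (adjusted p = 1.38e-08), from 618 ± 52.3 CPM in C1 (SD, n = 4), and was 264 ± 19.4 CPM in C1T. Msi2, an RNA-binding protein of the Musashi family, fell by 0.77 in C1M (adjusted p = 9.86e-09) and by 0.63 in C1H (adjusted p = 2.21e-06) and rose by 0.79 in C1T against C1 (adjusted p = 2.11e-11). Ago3 was 0.40 lower in C1M without passing (adjusted p = 0.0792) and fell by 0.72 in C1T against C1 (adjusted p = 0.000822), and Ago4 was at 3.17 ± 1.00 CPM or less in every group mean.

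Of the 24 known let-7 targets outside the 10 genes, 18 rose and 2 fell in C1T against C1, with a median log2 fold change of 0.89 against 0.01 over all tested genes, of which 49.3% passed. In the induced arms 15 rose and 0 fell in C1MV, 17 and 1 in C1MDT, 16 and 0 in C1HV, and 17 and 1 in C1HDT, with medians of 0.44, 0.67, 0.52 and 0.63, where 45.9%, 52.4%, 47% and 55.7% of all tested genes passed. At day 0 the list was split, with 5 up and 4 down in C1M and 5 up and 7 down in C1H (medians -0.03 and -0.07, against 0.06 and 0.04 over all tested genes, of which 26.3% and 25.9% passed). Against C1T at day 4, 3 were higher and 11 lower in C1MV, 2 and 5 in C1MDT, 3 and 8 in C1HV, and 2 and 6 in C1HDT, with medians of -0.32, -0.20, -0.15 and -0.16 against medians between -0.01 and 0.01 over all tested genes. Of all tested genes 30.2%, 33.4%, 28% and 33.5% passed in these 4 comparisons, so the counts with the drugs kept, 7 and 8 of 24, lay near that share. Ccnd2, a G1 cyclin, went from 3.75 ± 1.56 CPM in C1 to 168 ± 14.2 in C1T (log2 fold change 5.45, adjusted p = 1.33e-52) and lay lower in the induced day 4 groups, at means of 58.9 to 84.3 CPM. Ccnd1 rose by 2.87 (adjusted p = 3.63e-52), Cdk6, the kinase these cyclins bind, by 3.04 (adjusted p = 2.92e-24), and Dusp4, a MAP kinase phosphatase, by 4.72 (adjusted p = 4.98e-32) in C1T against C1. Of the 24 genes 15 held the seed complement in their longest annotated 3′ UTR, and Ccnd2, Ccnd1, Cdk6 and Dusp4 were among the 9 without a match.

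In the IGF axis with IGF2BP partners (22 genes tested), 0 rose and 7 fell in C1M, 0 and 6 in C1H, 6 rose and 4 fell in C1T against C1, and 12 or 13 rose in each induced arm with 3 to 5 falling. Over all tested genes 26.3%, 25.9% and 49.3% passed in C1M, C1H and C1T, and 45.9% to 55.7% in the induced arms. The medians were -0.10, -0.03 and 0.20 in C1M, C1H and C1T and 0.26 to 0.43 in the induced arms, against 0.06, 0.04, 0.01 and -0.06 to -0.04 over all tested genes. H19, the imprinted non-coding RNA next to Igf2, had a mean of 6.70 ± 1.59 CPM in C1T and means of 43.5 to 69.7 CPM in the induced day 4 groups, differences of 2.74 to 3.37 on the log2 scale (largest adjusted p = 2.21e-11). Igfbp5, an IGF-binding protein, had 2.58 ± 0.917 CPM in C1T and 23.3 to 43.3 in the induced groups, differences of 3.21 to 4.09 (largest adjusted p = 5.57e-19). Igf2r, which clears IGF2, fell by 1.74 in C1T against C1 (adjusted p = 1.33e-23) and lay 0.52 to 0.99 above C1T in the induced groups (largest adjusted p = 0.00363). Wtap, a partner of the m6A methyltransferase, fell by 1.14 in C1T against C1 (adjusted p = 2.37e-14).

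Among the 7 HMGB and HMGN chromatin proteins, 6 rose and 0 fell in C1T against C1 (median 1.17, against 0.01 over all tested genes), and 6 rose and 1 fell in each induced arm (medians 0.49 to 0.86, against -0.06 to -0.04). Over all tested genes 49.3% passed in C1T and 45.9% to 55.7% in the induced arms. Against C1T, 0 were higher and 4 or 5 lower in each induced group (medians -0.55 to -0.28), where 28% to 33.5% of all tested genes passed with medians between -0.01 and 0.01. At day 0, 2 were higher and 1 lower in C1M and 1 was higher and 0 lower in C1H (medians 0.05 and 0.02, against 0.06 and 0.04 over all tested genes, of which 26.3% and 25.9% passed). The gene that fell over time was Hmgn3, which rose at day 0, by 1.93 in C1M (adjusted p = 1.51e-17) and 2.00 in C1H (adjusted p = 7.74e-19), from 11.7 ± 2.15 CPM in C1 to 44.6 ± 4.47 and 47.0 ± 3.38. Hmgb3, Hmgn2 and Hmgn1 rose by 2.07, 1.78 and 1.56 in C1T against C1 (adjusted p = 2.14e-31, 3.18e-22 and 2.87e-47).

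Genes with the most similar profile over the 8 group means (Pearson r of mean log2 CPM, a description over groups that share day and treatment) were named for each member. For Lin28a they were Mnd1 (r = 0.9992) and Dnmt3l (0.9987), for Lin28b Meg3 (0.9931) and Jph1 (0.9901), and for Hmga2 Nptn (0.9968) and Gng12 (0.992). For Igf2bp1 they were Jmjd4 (0.985) and Ccdc9 (0.9736), for Igf2bp2 Snx2 (0.9916) and Npc2 (0.9904), and for Igf2bp3 Metrn (0.9712) and Commd4 (0.9634). For Trim71 they were Thoc1 (0.9795) and Anp32e (0.9747), for Dicer1 Phc1 (0.997) and Champ1 (0.9913), for Dis3l2 Tmem120b (0.9841) and Gpat2 (0.967), and for the low-count Hmga1 Impact (0.9583) and Ubxn4 (0.9477). Between members the 4 highest values of r were 0.939 for Trim71 with Dicer1, 0.9389 for Lin28a with Dicer1, 0.9055 for Igf2bp1 with Trim71 and 0.88 for Lin28a with Lin28b, and the lowest was -0.85 for Igf2bp1 with Hmga2.

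RefSeq promoter windows, from 250 bases before to 50 bases after the start, were at hand for 9 of the 10 genes (10 windows, 2 of Hmga1). The TCF/LEF-type letters CTTTGAT, read on both strands, occurred in 0 of the 10 windows and in 3.729% of 32851 windows over all genes. The shorter CTTTGA, which lies within it, occurred in the Lin28a window only and in 16.003% of all windows. This says only whether these letters lie in these windows.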

How the data were processed

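Total RNA of 32 cultures was measured by QuantSeq 3′ sequencing. The authors trimmed the reads, aligned them with STAR to mm10 and counted uniquely aligned reads per Ensembl gene with htseq-count, and they deposited these raw counts, 1 table per library with replicates not pooled. The summary lines of htseq-count that name no gene were left out, and columns of samples outside the series numbered 0. Of the sum of all lines, those for reads outside genes made up 4.72% to 11.2% and those for non-unique alignments 49.4% to 56.4%. The 31053 gene IDs were named with GENCODE vM21, which matched 30934. The 15280 genes that reached 1 CPM in 4 or more libraries were fitted in 1 model of all 8 groups with edgeR 4.0.16 (R 4.3.3), TMM scaling and quasi-likelihood tests, at a Benjamini-Hochberg FDR of 0.05, and every adjusted p in the text is from this test unless DESeq2 is named. The procedure was tested on simulated data.

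The members, gene lists, marker lists and naming rule were chosen with earlier results of these data known. The rule named all 10 members, the 4 genes of each list with the widest range over group means, and the 2 genes most similar to each member. Alternatives were RLE or library-size scaling, 2 other filters, a replicate block, fits on only the groups compared, DESeq2 1.42.0, and leaving out each library. Promoters and microRNAs came from RefSeq (GRCm38.p6) and 3′ UTRs from GENCODE transcripts on GRCm38. Depth limits low genes, and a level under 3 counts cannot be told from 0, for counting error only.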

Additional observations from a re-analysis of the deposited data

Results flagged for a closer look

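In 7 of 80 groups of 4 libraries, 1 library stood apart from the other 3 by Dixon's test at 95%, which chance would give in about 1 of 20 groups. For Igf2bp2 these were C1MV replicate 4 at 353 CPM, below the rest of its group, and C1HDT replicate 2 at 517 CPM, above it. For Trim71 they were C1T replicate 4 at 179 CPM, below, and C1HV replicate 2 at 255 CPM, above. For Dicer1 C1M replicate 4 at 160.2 CPM, C1T replicate 3 at 228 CPM and C1HDT replicate 2 at 224 CPM lay above. C1MV replicate 4 was also the library with the lowest depth, at 1366951 gene counts.

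In 26 cases the change from day 0 to day 4 differed between an induced arm and C1T by the interaction test. The values are the induced change minus the C1T change on the log2 scale. In C1MV they were -1.11 for Lin28b, 0.34 for Igf2bp1, 0.98 for Igf2bp2, 0.50 for Igf2bp3, 0.36 for Trim71 and 0.69 for Dis3l2. In C1MDT they were 0.55 for Igf2bp1, 0.96 for Igf2bp2, 0.77 for Igf2bp3, 0.43 for Trim71, 0.36 for Dicer1 and 0.91 for Dis3l2. In C1HV they were -1.08 for Lin28b, 0.56 for Hmga2, 0.29 for Igf2bp1, 0.95 for Igf2bp2, 0.62 for Igf2bp3, 0.36 for Trim71 and 0.61 for Dis3l2. In C1HDT they were 1.25 for Lin28a, -0.89 for Lin28b, 0.56 for Hmga2, 0.44 for Igf2bp1, 1.13 for Igf2bp2, 0.89 for Igf2bp3 and 0.82 for Dis3l2. The 4 arms share the C1 and C1T libraries, so these are not independent of each other.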

How the results depend on the processing

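Over 210 pairs of gene and comparison, 99 were called and 76 of these kept their call under all 7 alternative settings and all 32 fits that left out a library. Among 1449 values under other settings 1421 kept their direction and side of the threshold, 12 calls were lost, 16 were gained and none reversed, and among 6720 values with a library left out the numbers were 6598, 58, 64 and 0. The number of the 10 genes called in C1H against C1M went from 0 to 1 without the filter on low counts. In C1HDT against C1HV it went from 1 to 2 without the filter and to 2 on only the groups compared, and the cause was not tested. With a library left out, the number called ran from 5 to 9 in C1H against C1, from 1 to 4 in C1MDT against C1MV and from 0 to 2 in C1HDT against C1HV. Over all tested genes, C1H against C1M gave 271 calls and 570 on only the groups compared. The interaction between the drugs kept and withdrawn in both arms gave 0 calls, with 1284 genes at an unadjusted p under 0.05, 11 calls without the filter and 0 by DESeq2.

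The replicate numbers did not pair the libraries: deviations from group means correlated at a mean r of -0.00163 for the same number and 0.000545 for different numbers, between -0.0415 and 0.0277 by pair of groups, and 7 of 32 libraries correlated best with their own number. With the replicate block, 6 genes passed in C1M against C1, 9 in C1H against C1, 8 in C1T against C1 and 3 in C1MDT against C1MV, the same counts as without it, and no count of the 10 genes changed. Depth limited Hmga1, at 1 to 12 counts per library, and Lin28a at day 0, at 10 to 57.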
